A study of Mus musculus with 8 samples.

Results

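The genes described here encode 5 subunits of the phagocyte NADPH oxidase, namely Cybb, Cyba, Ncf1, Ncf4 and Rac2, followed on 8 microarrays of regulatory T (Treg) cells from mouse thymus and spleen. They were taken as 5 named genes of the 22180 genes with a probe set that carried exactly 1 gene symbol, and the probe set with the highest mean over the 8 arrays stood for a gene that had several. Each of the 5 had 1 such probe set, so that the mean level selected nothing among them. The genes were put together with earlier results of these arrays known, and the tests below are no independent evidence that this enzyme was worth choosing.

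The study asked how deleting the miR-181a/b-1 microRNA cluster affects the generation and function of Treg cells, which restrain immune responses and are defined by the transcription factor Foxp3. Foxp3 (GFP)+ CD4+ CD25+ cells were sorted to 98% purity from C57Bl/6J mice carrying a GFP reporter in the Foxp3 locus, and the study's methods give mice 7 to 12 weeks old. The groups were thymus KO (miR-181a/b-1-/-), thymus HET (miR-181a/b-1+/-), spleen KO and spleen HET, with 2 arrays each, and the HET mice, which carry 1 intact allele, served as controls. Each KO pool held 2 female mice and 1 male mouse, HET pool 1 held 3 females and 1 male, and HET pool 2 held 4 females and 1 male, as the series' design text gives them, whereas a legend of the study gives larger pools. Thymus and spleen cells of a genotype and number came from 1 pool, so that 4 pools of mice stand behind the 8 arrays.

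The phagocyte NADPH oxidase moves electrons from NADPH across a membrane onto oxygen and so makes superoxide, which neutrophils and macrophages use against microbes. Its membrane core, cytochrome b558, is a heterodimer of the catalytic subunit gp91phox (Cybb) and p22phox (Cyba). On activation, cytosolic proteins, among them p47phox (Ncf1) and p40phox (Ncf4), and a Rac GTPase join this core, and inherited loss of a core or cytosolic subunit causes chronic granulomatous disease in humans. Lymphocytes also transcribe several of these genes.

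In the RefSeq annotation of GRCm38.p6, the genes lie apart except for one pair. Cybb spans chrX:9435252-9487766, Cyba chr8:122424771-122432940 and Ncf1 chr5:134220053-134229628. Ncf4 (chr15:78244164-78262582) and Rac2 (chr15:78559169-78572783) share a chromosome and are 296.6 kb apart.

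The mature sequences of the deleted microRNAs are shown because they define the KO genotype. They are RefSeq entries of GRCm38.p6 on the plus strand, miR-181a-5p at chr1:137966468-137966490 and miR-181b-5p at chr1:137966650-137966673, and capitals mark the seed, bases 2 to 8, which the 2 microRNAs share.
mmu-miR-181a-5p: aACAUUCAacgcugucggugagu
mmu-miR-181b-5p: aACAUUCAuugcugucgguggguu

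Promoter sequence was at hand for 3 of the 5 genes, Cybb, Cyba and Ncf1. The 250 bases before the annotated start of Cybb and Ncf1 are shown because these genes had opposite differences between thymus and spleen. Capitals mark matches on either strand to an interferon regulatory factor (IRF) type motif, taken as GAAA, any 2 bases and GAAA again. The minus-strand window of Cybb is chrX:9469325-9469574 and that of Ncf1 is chr5:134229626-134229875, both GRCm38.p6, and the Cybb window lies inside the full span given for the gene.
Cybb: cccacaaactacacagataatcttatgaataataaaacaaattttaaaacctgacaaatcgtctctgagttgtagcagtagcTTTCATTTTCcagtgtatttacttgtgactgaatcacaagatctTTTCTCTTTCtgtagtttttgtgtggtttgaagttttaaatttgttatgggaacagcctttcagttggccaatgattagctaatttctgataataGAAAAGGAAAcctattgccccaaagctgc
Ncf1: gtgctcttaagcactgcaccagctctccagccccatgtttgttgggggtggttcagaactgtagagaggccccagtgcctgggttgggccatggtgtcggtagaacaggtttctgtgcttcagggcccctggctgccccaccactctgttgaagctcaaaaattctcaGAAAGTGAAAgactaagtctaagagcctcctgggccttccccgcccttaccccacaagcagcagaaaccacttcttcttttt

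Cybb held 3 matches to this motif, starting 168, 124 and 29 bases before the annotated start, and Ncf1 held 1, starting 82 bases before it, whereas Cyba held 0. The motif was found in 3.0% of 32851 RefSeq mouse promoter windows of the same length. In Ncf1 it overlapped the 1 match to a STAT type motif (TTCNNNGAA, in 7.0% of windows). The PU.1 core (GAGGAA, 23.3% of windows) had 0 matches in the 3 promoters. A GATA motif (GATAA, 22.6%) had 2 matches in Cybb, 2 in Cyba and 0 in Ncf1, and an E-box (CANNTG, 66.2%) had 1, 3 and 0. These matches describe letters in the windows and no binding was measured.

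Levels are deposited log2 intensities, so that a difference of 1 is a doubling, and the level of one probe set cannot be set against that of another. A practical bound for background was the 95th percentile of 1105 olfactory receptor genes, which T cells are not known to use, at 4.62. Array medians ran between 4.58 and 4.70. Replicate arrays differed by a median of 0.17 in thymus KO, 0.16 in thymus HET, 0.13 in spleen KO and 0.11 in spleen HET. All 8 Treg markers examined, Foxp3 and Il2ra among them, lay above the bound in the 4 groups, and 1 of them, Tnfrsf18, was called between the organs (thymus minus spleen 0.49, limma adjusted p = 0.0122). Under quantile normalization 3 of the 8 were called higher in thymus, Tnfrsf18 (0.58, adjusted p = 0.00419), Foxp3 (0.35, adjusted p = 0.0366, against 0.29 and 0.0717 as deposited) and Ikzf2 (0.39, adjusted p = 0.0325, against 0.29 and 0.107). Xist, the RNA of the inactive X chromosome, lay between 8.80 and 9.40 on the 4 KO arrays and between 3.58 and 4.40, under the bound, on the 4 HET arrays, although the labels make the HET pools mostly female. Y-chromosome transcripts (Uty, Kdm5d, Eif2s3y) were above the bound on all 8 arrays. The sex make-up of the pools and the genotype therefore cannot be told apart, which touches Cybb, an X-linked gene, in each comparison of genotypes.

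Between the organs the 5 genes did not move as 1 unit. Averaged over genotypes, with 4 thymus and 4 spleen arrays, Cybb and Ncf4 were lower in thymic Treg cells, Ncf1 was higher, and Cyba and Rac2 did not pass the threshold. Cybb was 4.43-fold lower and Ncf1 1.76-fold higher in thymus, while the difference of Ncf4 was 1.33-fold. In this comparison 1204 of 22180 genes, or 5.43%, passed an adjusted p of 0.05 (limma, Benjamini-Hochberg over all genes, two-sided), against 3 of the 5 oxidase genes. Of all calls 501 were higher and 703 lower in thymus, and 533 and 472 under quantile normalization, with which Ncf4 was no longer called (difference -0.31, adjusted p = 0.0559). At an unadjusted p under 0.05 the counts were 5 of 5 and 4678 genes, 21.1% of all. Thymus and spleen arrays did not overlap for 4 of the 5 oxidase genes and for 14.5% of all genes. The bulk arrays cannot tell fewer cells that use a gene from less of its RNA per cell.

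**Figure D1:**
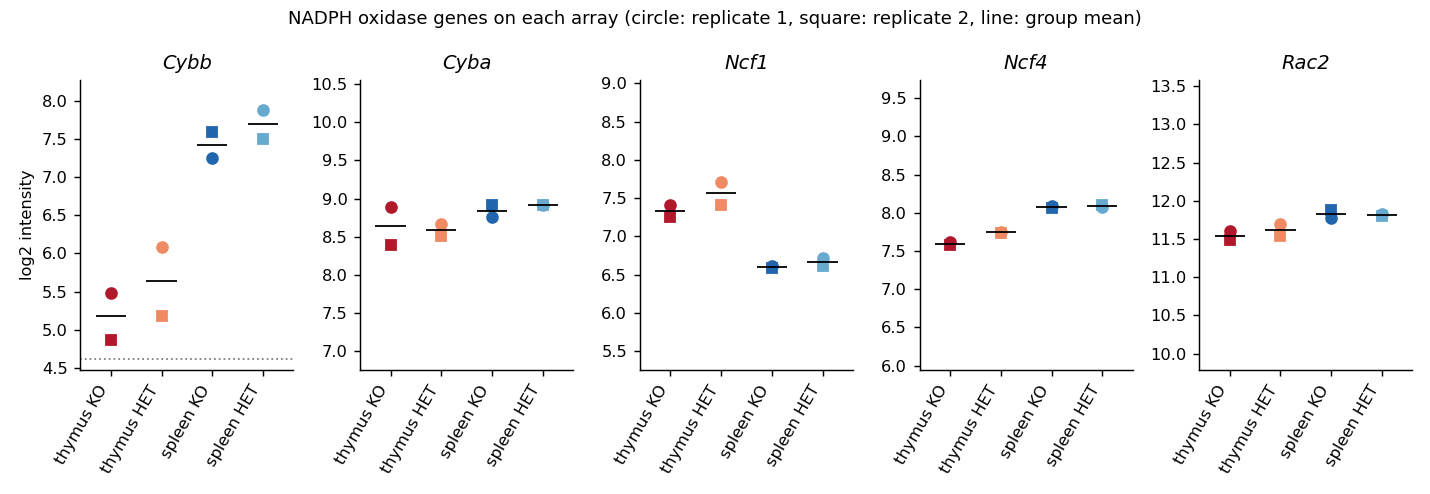
Log2 intensity of the 5 oxidase genes (y axis, each panel spanning the same range of log2 units) on the 8 arrays, by group (x axis). Circles are replicate 1, squares replicate 2, horizontal lines group means of 2 arrays, and the dotted line for Cybb is the olfactory receptor bound of 4.62. The thymus arrays lie below the spleen arrays for Cybb and above them for Ncf1.

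Cybb, the catalytic subunit that carries the electrons, had the largest difference of the 5 genes. It stood at 5.49 and 4.87 in thymus KO, at 6.09 and 5.19 in thymus HET, at 7.25 and 7.59 in spleen KO and at 7.88 and 7.50 in spleen HET. Every thymus array was below every spleen array, and the lowest thymus KO array was the nearest to the olfactory receptor bound. The means were 5.41 ± 0.52 in thymus and 7.55 ± 0.26 in spleen (SD, n = 4 each), a difference of -2.15 (95% CI -2.57 to -1.72, limma adjusted p = 9.26e-05). Within KO cells the difference was -2.24 (CI -2.85 to -1.64, adjusted p = 0.00204) and within HET cells -2.05 (CI -2.65 to -1.45, adjusted p = 0.00396). Cybb was the member with the widest spread between arrays of a group, and in both genotypes its replicates lay further apart in thymus, by 0.62 in KO and 0.90 in HET, than in spleen, by 0.34 and 0.38.

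Cyba encodes p22phox, the partner that stabilises gp91phox in the membrane and anchors the cytosolic complex. Its levels were 8.89 and 8.39 in thymus KO, 8.66 and 8.51 in thymus HET, 8.76 and 8.92 in spleen KO and 8.91 and 8.92 in spleen HET. One thymus KO array reached into the spleen range and the other was the lowest of all, so that the organs overlapped. The means were 8.61 ± 0.22 in thymus and 8.88 ± 0.08 in spleen (SD, n = 4 each), a difference of -0.26 that did not pass (CI -0.52 to -0.01, adjusted p = 0.215). The size of the difference depended on the setting. It was -0.39 without thymus KO replicate 1, which leaves 1 array in that group, and -0.17 under quantile normalization (adjusted p = 0.404). Cyba passed in 1 of 15 alternatives, a fit with 1 array left out. Within KO cells the difference was -0.20 (adjusted p = 0.597) and within HET cells -0.33 (adjusted p = 0.469).

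Ncf1 encodes p47phox, the organiser that is phosphorylated on activation and carries the cytosolic complex to the membrane core. Its difference had the opposite sign to that of Cybb. The levels were 7.41 and 7.26 in thymus KO, 7.71 and 7.41 in thymus HET, 6.61 and 6.58 in spleen KO and 6.72 and 6.61 in spleen HET. All thymus arrays lay above all spleen arrays, and the spleen arrays lay close together. The means were 7.45 ± 0.19 in thymus and 6.63 ± 0.06 in spleen (SD, n = 4 each), a difference of 0.82 (CI 0.60 to 1.03, adjusted p = 0.000615). The difference was 0.74 within KO cells (CI 0.44 to 1.04, adjusted p = 0.0212) and 0.90 within HET cells (CI 0.59 to 1.20, adjusted p = 0.00912). Both within-genotype calls were lost when single arrays were left out, while the differences stayed between 0.66 and 0.82 in KO and between 0.74 and 1.05 in HET. The KO call was lost without any 1 of the 4 KO arrays, at an adjusted p between 0.0651 and 0.156, and the HET call was lost without thymus HET replicate 1 (0.0572), spleen HET replicate 1 (0.0604) or spleen HET replicate 2 (0.118).

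Ncf4 encodes p40phox, a cytosolic subunit that binds a phosphoinositide of phagosome membranes. It had 7.62 and 7.57 in thymus KO, 7.75 and 7.73 in thymus HET, 8.09 and 8.06 in spleen KO and 8.08 and 8.11 in spleen HET. The replicates were nearly alike in each group, and no thymus array reached the spleen arrays. Mean levels were 7.67 ± 0.09 in thymus and 8.08 ± 0.02 in spleen (SD, n = 4 each), a difference of -0.42 (CI -0.60 to -0.23, adjusted p = 0.0143). This call needed all 4 spleen arrays, since it was lost without any one of them, at an adjusted p between 0.0538 and 0.0748, with the difference between -0.42 and -0.41. Within KO cells the difference was -0.48 (adjusted p = 0.0679) and within HET cells -0.35 (adjusted p = 0.24), and neither passed.

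Rac2 encodes the Rac GTPase of blood cells, which also acts on the actin cytoskeleton outside the oxidase. Its levels were 11.61 and 11.48 in thymus KO, 11.70 and 11.54 in thymus HET, 11.78 and 11.88 in spleen KO and 11.83 and 11.80 in spleen HET. The highest thymus array was still below the lowest spleen array. The means of 11.58 ± 0.09 in thymus and 11.82 ± 0.05 in spleen (SD, n = 4 each) differed by -0.24, which did not pass (CI -0.44 to -0.04, adjusted p = 0.15). Within KO cells it was -0.29 (adjusted p = 0.302) and within HET cells -0.19 (adjusted p = 0.591). Rac2 and its neighbour on chromosome 15, Ncf4, both had lower values in thymus, and the difference of Ncf4 alone passed.

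Within 1 genotype, 2 of the 5 genes passed in KO cells, where 1.72% of all genes did, and 2 of 5 in HET cells, where 1.2% did. They were Cybb and Ncf1 in both. The KO and HET comparisons use separate arrays for their means, but share 1 estimate of the spread from all 8 arrays. The order of the group means was thymus KO, thymus HET, spleen KO and spleen HET, low to high, for Cybb and Ncf4, and spleen KO, spleen HET, thymus KO and thymus HET for Ncf1. In each of these orders the step between organs exceeded the spread within groups, and the steps between KO and HET of 1 organ did not pass the test.

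**Figure D2:**
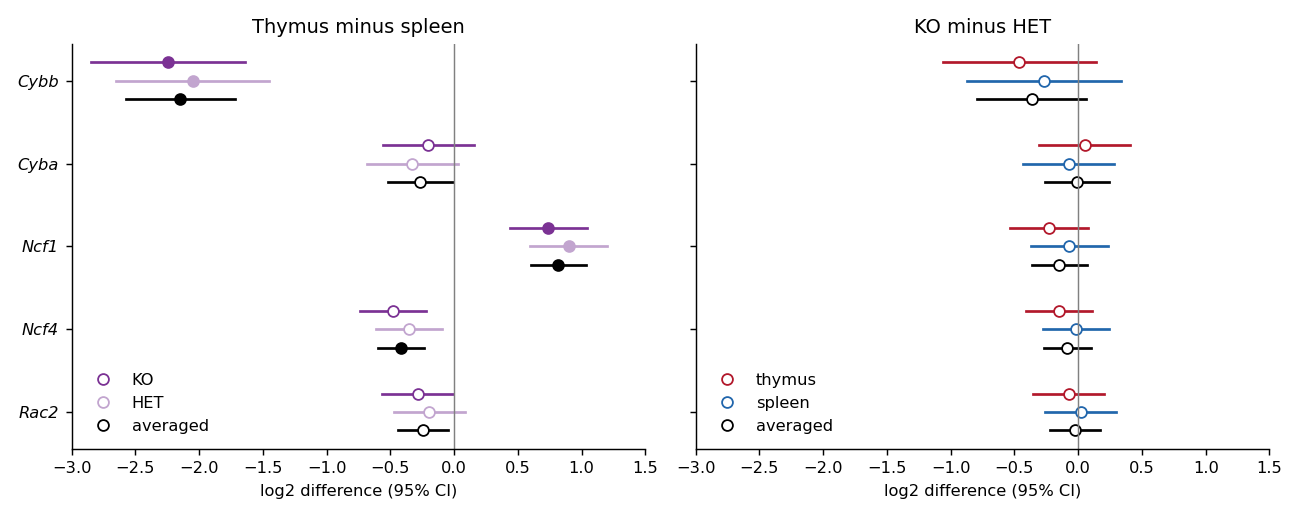
Log2 differences of the 5 oxidase genes with 95% confidence intervals (x axis), thymus minus spleen on the left panel and KO minus HET on the right. Filled points passed an adjusted p of 0.05 in limma and open points did not. Cybb and Ncf1 lie on opposite sides of 0 in the left panel, and no gene passed in the right panel.

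The comparison of KO with HET cells found no oxidase gene past the threshold. In thymus 0 of the 5 passed, where 0.00451% of all genes did (1 of 22180), in spleen 0 passed, with the same background of 0.00451%, and averaged over tissues 0 passed, against 0.0225% of all genes (5 of 22180). At an unadjusted p under 0.05 the members again counted 0 in all 3 comparisons, while 1225, 888 and 1226 genes of all did so. Cybb differed by -0.46 in thymus (CI -1.06 to 0.14, adjusted p = 0.959) and by -0.27 in spleen (CI -0.87 to 0.33, adjusted p = 1). Averaged over tissues its difference was -0.37 (CI -0.79 to 0.06, unadjusted p = 0.0863 and adjusted p = 0.939 in limma). The KO and HET arrays of Cybb overlapped in both organs.

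The other subunits had narrower intervals. Averaged over tissues, KO minus HET was -0.01 for Cyba (CI -0.26 to 0.24), -0.15 for Ncf1 (CI -0.36 to 0.07), -0.08 for Ncf4 (CI -0.27 to 0.10) and -0.03 for Rac2 (CI -0.22 to 0.17), with adjusted p-values between 0.981 and 0.997. KO and HET arrays did not overlap for Ncf4 in thymus, at a difference of -0.15 (CI -0.41 to 0.11, adjusted p = 0.974), nor for Ncf1 in spleen, at -0.07 (CI -0.37 to 0.23, adjusted p = 1). This is 1 of 5 members in each organ, where 29.4% of all genes did not overlap in thymus and 36% in spleen. All 5 averaged differences were below 0, where the median of all genes was 0.00.

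The genotype by tissue interaction, taken as the spleen difference minus the thymus difference, gave 0 called members and 0 called genes, 0% of 22180, with 0 members and 813 genes at an unadjusted p under 0.05 in limma. It was 0.19 for Cybb (CI -0.66 to 1.04), -0.12 for Cyba (CI -0.63 to 0.38), 0.16 for Ncf1 (CI -0.27 to 0.59), 0.13 for Ncf4 (CI -0.24 to 0.49) and 0.09 for Rac2 (CI -0.30 to 0.48), each at an adjusted p of 1. The interval of Cybb was the widest of the 5.

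In thymus the array numbered 1 was higher than the array numbered 2 in both genotypes for 5 of the 5 genes, a pattern found in 31.2% of all genes. The gap was 0.50 in KO and 0.15 in HET for Cyba, and 0.15 and 0.31 for Ncf1, the gene that was higher in thymus. In spleen the same was true of 1 of the 5 genes and of 22.7% of all. Array processing batches were not labelled, and their part in these gaps was not tested.

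Other parts of the oxidase were described with the same fit. Averaged over genotypes, 5.43% of all genes were called there between thymus and spleen, the share to set beside the lists below. Hvcn1, the voltage-gated proton channel that balances the charge the oxidase moves, was lower in thymus, at 7.40 against 7.92 in spleen (difference -0.52, CI -0.80 to -0.23, adjusted p = 0.0398), a call that was lost under quantile normalization (-0.39, adjusted p = 0.131). Cybc1, the chaperone that the gp91phox and p22phox dimer needs, was at 7.19 in thymus and 7.42 in spleen and did not pass (-0.23, adjusted p = 0.189). Rac1, the widely expressed relative of Rac2, was at 10.31 in thymus and 10.24 in spleen (0.07, CI -0.12 to 0.27, adjusted p = 0.681). So of these 3 measured genes 1 was called lower and 0 higher, and 0 of 3 was called between KO and HET averaged over tissues.

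Of 7 measured genes of the other NADPH oxidases and their maturation factors, 1 was called between the organs. Noxa1, an activator of another NADPH oxidase, was lower in thymus, at 4.90 against 5.58 in spleen (-0.68, adjusted p = 0.00586), and also within HET cells (-0.78, adjusted p = 0.0466). Nox1, Nox4, Duox1, Duox2 and Duoxa1 had means over the 8 arrays between 3.70 and 4.29, under the olfactory receptor bound, and Nox3 was at 4.62 in thymus and 4.38 in spleen (0.25, adjusted p = 0.139).

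Among 18 measured regulators of the oxidase or of its genes, 0 were called higher and 1 lower in thymus, with a median difference of -0.09 where all genes had 0.02. Under quantile normalization the median was 0.0009, 9 of the 18 differences were below 0, and 2 were called higher and 1 lower. The called gene was Irf1, an interferon-induced transcription factor, at 8.30 in thymus and 8.71 in spleen (-0.41, CI -0.61 to -0.22, adjusted p = 0.0193). Vav2, an exchange factor for Rac, was at 7.75 and 7.40 (0.35, adjusted p = 0.0508, and 0.47 with an adjusted p of 0.00709 under quantile normalization), and Dock2, the Rac exchange factor of lymphocytes, at 10.07 and 10.33 (-0.26, adjusted p = 0.122). Prkcd, a kinase that phosphorylates p47phox, passed under quantile normalization only (0.25, adjusted p = 0.17, and 0.36 with an adjusted p of 0.0357 there). Spi1 encodes PU.1, the myeloid and B cell factor known to drive Cybb and Ncf1 in phagocytes. It lay between group means of 5.07 and 5.23 and differed by 0.07 between the organs (CI -0.19 to 0.34, adjusted p = 0.778). Irf8, another factor of myeloid cells, was at 6.15 in thymus and 5.99 in spleen (0.16, adjusted p = 0.35).

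**Figure D3:**
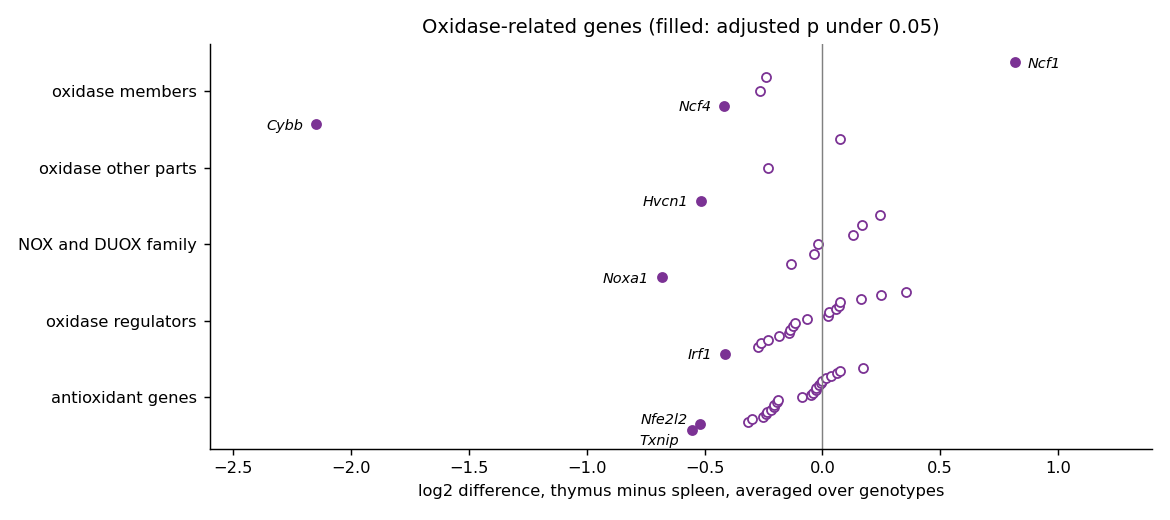
Log2 difference, thymus minus spleen averaged over genotypes (x axis), of each measured gene in 5 lists (y axis, genes of a list spread vertically by value). Filled and named points passed an adjusted p of 0.05 in limma. Ncf1 is the only called gene to the right of 0, and Cybb lies furthest from 0.

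Phagocytes, and to a lesser degree B cells, are known to express the oxidase, so markers of cells that a sort could carry along were set beside it. Of 14 measured monocyte and macrophage markers, between 6 and 8 lay above the bound by group, and their summed linear intensity was 306 to 325 in thymus KO, 305 to 327 in thymus HET, 342 to 369 in spleen KO and 309 to 340 in spleen HET. Only Ly6c2 was called among them, at 3.81 in thymus and 5.21 in spleen (-1.40, adjusted p = 9.56e-05), a gene that lymphocytes also transcribe. Csf1r, the macrophage growth factor receptor, had group means between 4.87 and 5.13 and differed by -0.09 (adjusted p = 0.747). C1qa, C1qb and Tyrobp lay above the bound in all groups and differed by 0.02, -0.07 and 0.08. Lyz2, Itgam, Adgre1 and Cd14 lay under the bound in all groups and differed by -0.24, 0.00, 0.06 and 0.00, with adjusted p-values between 0.265 and 0.997. Of 10 neutrophil markers, 1 or 2 lay above the bound, the sums ran between 158 and 183, and 0 were called.

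Of 11 measured B cell markers, 8 had higher and 3 lower means in thymus, with a median difference of 0.03 where all genes had 0.02, and 0 were called higher and 2 lower. The 3 with lower means, Ighm, Cd79b and Bank1, were also the 3 above the bound in each group. The summed intensity was 1130 to 1243 in thymus KO, 1356 to 1536 in thymus HET, 1864 to 1913 in spleen KO and 2244 to 2318 in spleen HET, most of it from Ighm. Ighm, the immunoglobulin mu chain, was at 10.07 in thymus and 10.83 in spleen (-0.76, adjusted p = 0.000615), and Bank1, a B cell adaptor, differed by -0.44 (adjusted p = 0.0167). Cd79b, a chain of the B cell receptor, was at 5.97 in thymus and 6.36 in spleen (-0.38, unadjusted p = 0.00679 and adjusted p = 0.0823 in limma), with -0.63 within KO cells (adjusted p = 0.0867). Cd79a, its partner chain, and the B cell genes Ms4a1 and Pax5 lay under the bound in all 4 groups and differed by 0.09, 0.22 and 0.01, none of which passed. Of 9 measured dendritic cell markers 0 were called, and their summed intensity was 2000 to 2164 in thymus KO, 2081 to 2462 in thymus HET, 1725 to 1802 in spleen KO and 1854 to 2065 in spleen HET. Most of this sum came from Ccr7 and Cd209a, with means of 9.86 and 9.56 over the 8 arrays. Itgax, Flt3, Siglech and Batf3 lay under the bound in all 4 groups. Of 7 measured double-positive thymocyte markers, all 7 had higher means in thymus in both genotypes and 2 were called higher, Dntt (0.96) and Cd8a (1.15). Cd8a was above the bound in thymus KO only, at 5.75, against 4.48 in thymus HET, and thymus minus spleen was 1.64 within KO cells (adjusted p = 0.00602) and 0.66 within HET cells (adjusted p = 0.299). KO minus HET in thymus was 1.27 for Cd8a (unadjusted p = 0.000248 and adjusted p = 0.326 in limma). Dntt went the other way, at -0.42 (unadjusted p = 0.0112 and adjusted p = 0.751 in limma). Of the 7 markers, 3 had higher and 4 lower means in thymus KO than in thymus HET, with a median difference of -0.08. The part of other cell types in the oxidase values was not tested beyond these levels.

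**Figure D4:**
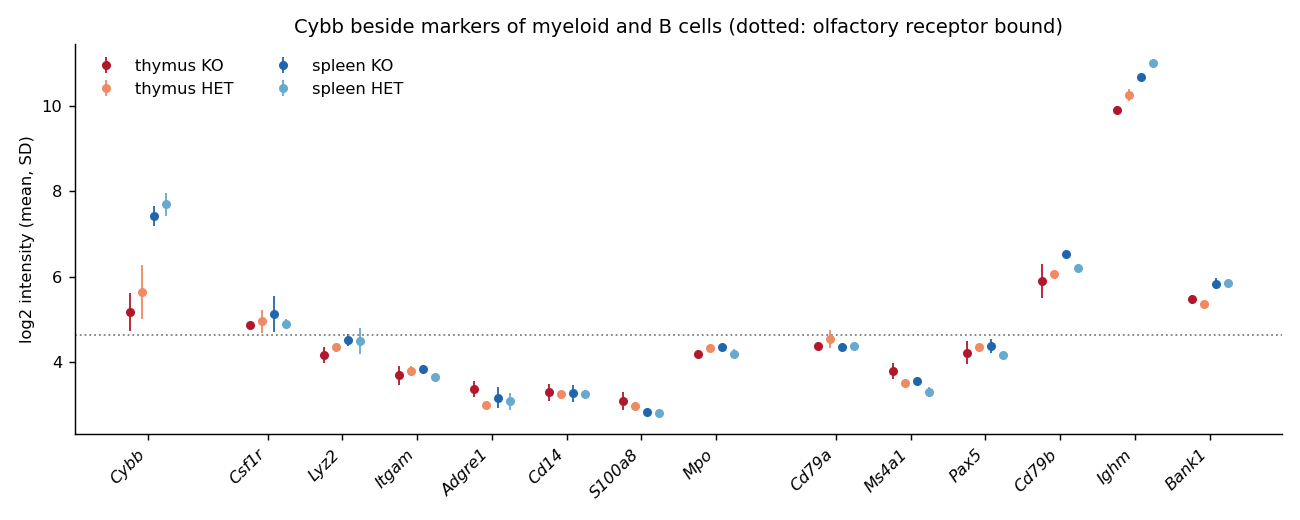
Log2 intensity (y axis) of Cybb, 7 myeloid markers and 6 B cell markers (x axis), as group means of 2 arrays with SD bars. The dotted line is the olfactory receptor bound of 4.62. The markers shown are part of those measured. Not shown are Ly6c2, the only called myeloid marker and higher in spleen, and C1qa, C1qb and Tyrobp, above the bound in all groups. Cybb is higher in the spleen groups, and so are Cd79b, Ighm and Bank1, which lie above the line in all groups, as does Csf1r. Lyz2, Itgam, Adgre1, Cd14, Cd79a, Ms4a1 and Pax5 lie below the line in all groups.

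The genes whose levels ran most like each subunit were sought among 11275 genes with means above the bound, by Pearson's r over the 8 arrays. For Cybb they were Cd274, encoding the inhibitory ligand PD-L1 (r = 0.994), Mtmr4 (0.994) and Herpud1 (0.993). For Ncf1 they were Dusp5, a phosphatase of ERK (0.985), Sdc4, encoding syndecan-4 (0.982), and Abca1, the cholesterol exporter (0.981). For Ncf4 they were Resf1 (0.994), Wwp1 (0.993) and Ptpn13 (0.991). Dhcr7, Wdr48 and Polr3b stood nearest to Rac2 (0.990, 0.990 and 0.988), and Cdkn1b, Snrpd3 and Npc1 to Cyba (0.985, 0.979 and 0.978).

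These correlations describe 8 arrays that fall into an organ pair of clusters and share pools. Likeness in r was not likeness in size, since Cd274 differed by -0.28 between thymus and spleen and Herpud1 by -0.46, while Cybb differed by -2.15. The Ncf1 neighbours were closer in size, with Dusp5 at 0.79, Sdc4 at 0.98 and Abca1 at 1.35. None of the 3 nearest genes of any subunit was another of the 5. With 3 places among 11275 genes, this cannot show whether the subunits run together.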

How the data were processed

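The deposited values are log2 intensities of Affymetrix arrays of total RNA, which the authors made with the R package oligo (version and summarisation not given in the sources used here). The probe set names belong to another array design than the one the study's methods name. Probe sets were named from the platform annotation given with the series, and those with exactly 1 symbol gave 22180 genes. One limma model (limma 3.58.1, R 4.3.3) of all 8 arrays with 4 group means and eBayes moderation was fitted, with two-sided tests, Benjamini-Hochberg adjustment over all genes and a threshold of 0.05. The main fit treats arrays of 1 pool as independent. Thymus and spleen arrays of 1 number share their mice, per the series' design text. Their deviations from the group means correlated at 0.02 in KO and 0.12 in HET. Between KO and HET arrays of 1 number, which come from different pools, the correlation was 0.205 in thymus and -0.046 in spleen. With 2 arrays per group the number of arrays limits the precision. The script was tested on simulated data.

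Members and lists were chosen with earlier results of these data known. Named were all 5 oxidase genes, list genes that were called, up to 4 of a list with the smallest p-values, Rac1, Cybc1, Spi1 and Irf8, the 3 genes most like each oxidase gene, and defining cell type markers. The number of columns without a sample was 0. The alternatives were a filter on low genes, quantile normalization, trend and robust moderation, the mean of probe sets, array weights, only the compared arrays, pool or replicate blocks, and leaving out each array. No protein sequences and no promoters of Ncf4 and Rac2 were used here.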

Additional observations from a re-analysis of the deposited data

How the results depend on the processing

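Cybb kept its direction and its call under every alternative in the 3 organ comparisons, at -2.37 to -1.92 averaged over genotypes, and so did Ncf1 in the averaged comparison, at 0.74 to 0.92. The count of called oxidase genes within KO cells was 2 and ran between 1 and 2 when each array was left out. Within HET cells it was also 2 and ran between 1 and 2. Averaged over genotypes it was 3 and ran between 2 and 4. Ncf4 was lost under quantile normalization. Cyba was gained in 1 of its 15 alternatives, a fit with 1 array left out. Rac2 was gained with trend and robust moderation (adjusted p = 0.0257). Within KO cells Ncf4 was gained with that moderation (adjusted p = 0.0339) and when genes under the median level were left out (0.0306). The mouse pool as a replicate block gave the same counts of 2, 2 and 3 members and changed no member's call. Using only the compared arrays gave no value for the averaged comparisons and the interaction.

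Counts over all genes moved more. Within KO cells 381 genes were called, against 612 with the filter on low genes and 97 without spleen KO replicate 2. Within HET cells 266 were called, against 401 with the filter and 64 at the fewest when 1 array was left out. Averaged over genotypes 1204 were called, and 518 at the fewest when 1 array was left out. Between KO and HET averaged over tissues 5 genes were called, against 11 with the filter, 13 with trend and robust moderation and 1 under quantile normalization. In spleen 1 gene was called, and 6 with array weights. In thymus 1 was called, and 3 with the replicate block.

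Small differences changed sign, and none of them passed the threshold on either side. KO minus HET averaged over tissues was 0.0074 for Cyba under quantile normalization. With each array left out, Cyba ran between -0.14 and 0.12 averaged over tissues, -0.15 and 0.0064 in spleen and -0.20 and 0.30 in thymus, and Rac2 between -0.0694 and 0.0134 averaged, -0.0343 and 0.0704 in spleen and -0.16 and 0.0087 in thymus. Cyba, thymus minus spleen within KO cells, ran between -0.45 and 0.0496. The interaction ran between -0.26 and 0.64 for Cybb and -0.38 and 0.13 for Cyba. The cause of these sign changes was not tested.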

Other observations

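Genes that handle the products of the oxidase were read from the same fit. Of 25 measured antioxidant genes, 20 had lower means in thymus than in spleen. Under quantile normalization 18 of the 25 did, beside 11149 of all 22180 genes. As deposited, 2 of the 25 were called lower and 0 higher, where 5.43% of all genes were called in either direction. The median difference was -0.09 where all genes had 0.02. Nfe2l2, the transcription factor of the antioxidant response, was at 7.18 in thymus and 7.70 in spleen (-0.52, limma adjusted p = 0.00851). Txnip, the inhibitor of thioredoxin, was at 10.64 in thymus and 11.20 in spleen (-0.55, adjusted p = 0.00867). Neither passed within 1 genotype. The mitochondrial peroxiredoxin Prdx3 differed by -0.32 (adjusted p = 0.154) and Gclc, of glutathione synthesis, by -0.21 (adjusted p = 0.184). Between KO and HET cells averaged over tissues 0 of the 25 were called.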
